A study of Mus musculus with 8 samples.

Results

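The genes described here are the clock output transcription factors Dbp, Tef, Hlf, Nfil3, Ciart, Bhlhe40 and Bhlhe41, taken by name from a table of read counts per gene in mouse cardiac ventricle. They are 7 of the 38293 genes in the table, and all 7 were among the 14567 genes with enough reads to be tested. Poly(A)-selected RNA was sequenced from 4 samples that carry 1 mutated copy of Pkp2 (genotype label PKP2 c.1755A/WT; HET below) and from 4 samples with both copies intact (PKP2 WT/WT; WT below). All 8 samples were a mix of left and right ventricle from mice of 8 weeks, so the groups share tissue, age and library chemistry. They differ by genotype and by digits of the sample titles, which are given with the libraries. Pkp2 encodes plakophilin-2, a protein of the desmosome, the junction that holds heart muscle cells together. The time of day at which hearts were collected is not in the labels. Nor do they state that each sample was a different mouse, so the p-values speak only of the spread among these 8 samples, part of which may be technical.

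In mammalian cells the circadian clock runs on a feedback loop in which BMAL1, the protein of Arntl, pairs with CLOCK and activates genes through a DNA element called the E-box, and the PER and CRY proteins made from such genes then shut the pair off. Output factors carry this rhythm to other genes. DBP, TEF and HLF are related activators that bind a second element, the D-box, and NFIL3 (also called E4BP4) represses through the same element. CIART (also called CHRONO) represses the BMAL1-CLOCK pair, and BHLHE40 and BHLHE41 (also called DEC1 and DEC2) are repressors that bind E-boxes. In mouse heart and liver the Dbp transcript peaks roughly when the Arntl transcript is low, so the balance between them depends on the hour at which tissue is taken.

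The E-box is printed where it occurs upstream of these genes because it is the element through which the BMAL1-CLOCK pair acts. The 250 bases before each RefSeq start (GRCm38.p6) were searched on both strands for CACGTG, which reads the same on both strands. This E-box was in 6.02% of 32851 promoters of 27025 genes, and 3 or more copies were in 20 promoters, 0.0609% of them. RefSeq gave 7 promoters for 6 of the factors, 2 of them for Tef, and none was used for Bhlhe40. Ciart was one of the genes with 3 copies, whose first bases lay 116, 58 and 44 bases before the start. Its upstream sequence, chr3:95882252-95882478 on the minus strand, is given with the 3 copies in capitals, from 250 to 24 bases before the RefSeq start.
Ciart: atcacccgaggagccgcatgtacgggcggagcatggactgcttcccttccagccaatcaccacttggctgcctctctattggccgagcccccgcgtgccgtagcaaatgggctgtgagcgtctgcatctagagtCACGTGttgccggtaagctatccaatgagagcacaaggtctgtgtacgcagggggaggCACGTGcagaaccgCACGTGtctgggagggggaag

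Bhlhe41 had 1 E-box, 153 bases before its start, and Tef had 1 in each of its promoters, 127 and 138 bases before the starts. In the GENCODE annotation the Tef matches lie in an exon and in an intron of the gene, and the Bhlhe41 match lies outside the gene. Windows of 30 bases around them are given with the E-box in capitals, for Bhlhe41 at chr6:145865556-145865585 on the minus strand and for Tef at chr15:81802534-81802563 and chr15:81811264-81811293 on the plus strand.
Bhlhe41: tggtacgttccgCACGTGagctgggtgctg
Tef, exon: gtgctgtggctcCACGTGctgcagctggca
Tef, intron: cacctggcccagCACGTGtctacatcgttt

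No CACGTG was in the windows of Dbp, Hlf or Nfil3. The D-box was searched as TTATGTAA, present in 0.819% of promoters, and as TTACGTAA, present in 0.113%, and neither was in the windows of these factors. The core AGGTCA of the element bound by ROR and REV-ERB receptors was in 14.0% of promoters. Among the factors it was found in Nfil3 alone, 12 bases before the start and on the opposite strand, where it reads TGACCT, inside a GENCODE exon at chr13:52981040-52981069 on the minus strand.
Nfil3: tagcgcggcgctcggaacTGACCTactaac
A match describes letters only, and the motifs searched did not overlap one another in these windows.

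Each HET library held 32397302 to 38611008 counts, and each WT library 38510257 to 41234883. Pkp2 averaged 97.3 ± 7.2 CPM (a gene's count scaled to a common library size) in HET and 162.7 ± 9.6 CPM in WT (SD, n = 4 each), and it did not overlap between the groups. It was the 1 gene of 14567, 0.00686%, that passed an adjusted p of 0.05 in edgeR's quasi-likelihood test (Benjamini-Hochberg), with a log2 fold change of -0.74 (SE 0.065, adjusted p = 0.00376). Mitochondrial transcripts took 17.1 to 19.1% of counts in HET and 14.7 to 19.1% in WT, and WT 3, the lowest at 14.7%, stood apart on the first principal component, which held 24.9% of the variance. The 7 ventricular cardiomyocyte markers of the labelled tissue summed to 73460 to 77880 CPM in HET and 69410 to 74130 CPM in WT. The sample titles open with the genotype, and 4 digits were taken from inside each title to form sets. The labels state neither the meaning of these digits nor that they make up a unit of their own. HET 1, HET 3, HET 4 and WT 1 share one such number, HET 2, WT 3 and WT 4 share another, and WT 2 has a number of its own. The last digits of the titles differ in every sample, and all WT titles end in lower numbers than all HET titles. The meaning of those last digits is not stated either. WT 2 is the library on which most of what follows turns, so the factors' fold changes, correlations and ratios are given with and without it.

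Dbp, the D-box activator known for a wide daily swing in many tissues, spanned a wider range among WT libraries than among HET libraries. It lies on chromosome 7 (45705088 to 45710203, plus strand; ENSMUSG00000059824) and was counted 1253 to 9191 times per library. Its levels were 55.0, 59.6, 33.5 and 35.2 CPM in HET 1 to HET 4, against 30.2, 231, 31.5 and 112.5 CPM in WT 1 to WT 4. WT 2 and WT 4 stood above all HET libraries, WT 1 and WT 3 stood below all of them, and the highest library exceeded the lowest 7.67-fold. The gene span of Dbp overlaps that of Sphk2, on the opposite strand, by 737 bases. The counting's strand setting was not given in the sources used here. Sphk2 was counted 717 to 1333 times and was lowest in WT 2, where Dbp was highest.

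Tef, a second D-box activator (chromosome 15, 81802421 to 81826863, plus strand; ENSMUSG00000022389), moved in the same order with a smaller range. Its levels were 134, 134, 103 and 110.2 CPM in HET 1 to HET 4, against 97.1, 257, 98.9 and 146 CPM in WT 1 to WT 4. WT 2 and WT 4 were again the highest libraries and WT 1 and WT 3 the lowest, with the HET libraries between them.

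Hlf, the third activator of the family (chromosome 11, 90336536 to 90390895, minus strand; ENSMUSG00000003949), was high in 1 library. Its levels were 18.02, 20.5, 15.2 and 15.2 CPM in HET 1 to HET 4, against 15.1, 44.5, 14.1 and 17.3 CPM in WT 1 to WT 4. WT 4, high for Dbp and Tef, lay below HET 1 and HET 2 for Hlf. Without WT 2, the highest WT library exceeded the lowest 1.23-fold, close to the 1.34-fold among HET libraries.

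Nfil3, which represses through the D-box that these activators bind, ran the other way. It lies on chromosome 13 (52967209 to 52981073, minus strand; ENSMUSG00000056749). Its levels were 15.9, 13.0, 18.1 and 17.3 CPM in HET 1 to HET 4, against 17.9, 6.74, 15.7 and 11.04 CPM in WT 1 to WT 4. WT 2 was lowest and WT 4 next, below all HET libraries, and WT 1 and WT 3 were within the HET range.

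Ciart, the repressor of BMAL1-CLOCK with 3 upstream E-boxes, had the lowest count in any library and the widest range of the 7 factors. It lies on chromosome 3 (95878503 to 95882251, minus strand; ENSMUSG00000038550) and was counted 62 to 1334 times per library. Its levels were 3.74, 2.15, 3.17 and 2.10 CPM in HET 1 to HET 4, against 1.97, 33.6, 1.498 and 6.45 CPM in WT 1 to WT 4. WT 2 was 22.4-fold above WT 3, WT 4 was the next highest, and the remaining WT libraries were below all HET libraries. The span of the antisense gene C920021L13Rik covers the whole of Ciart, and this gene was counted 20 to 45 times, with the highest count in WT 2. Where exons of the pair overlap, their reads cannot be told apart if strand was not used, and the overlap of exons was not measured. The 45 counts in WT 2 beside 1334 for Ciart therefore do not show how much the overlap matters.

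Bhlhe41, the E-box repressor DEC2 (chromosome 6, 145858243 to 145865558, minus strand; ENSMUSG00000030256), was highest in the same libraries as Tef. Its levels were 23.3, 22.6, 17.2 and 19.2 CPM in HET 1 to HET 4, against 20.6, 48.8, 20.5 and 29.1 CPM in WT 1 to WT 4. WT 2 and WT 4 stood above every HET library, and WT 1 and WT 3 lay inside the HET range.

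Bhlhe40, the related repressor DEC1, which is also known to respond to hypoxia and other stimuli, did not share this order. It lies on chromosome 6 (108660629 to 108666925, plus strand; ENSMUSG00000030103). Its levels were 75.0, 66.2, 76.8 and 64.5 CPM in HET 1 to HET 4, against 43.7, 96.5, 84.4 and 69.99 CPM in WT 1 to WT 4. WT 2 was again the highest, but WT 3 came next and WT 4 lay within the HET range, while WT 1 was the lowest of all 8.

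**Figure D1:**
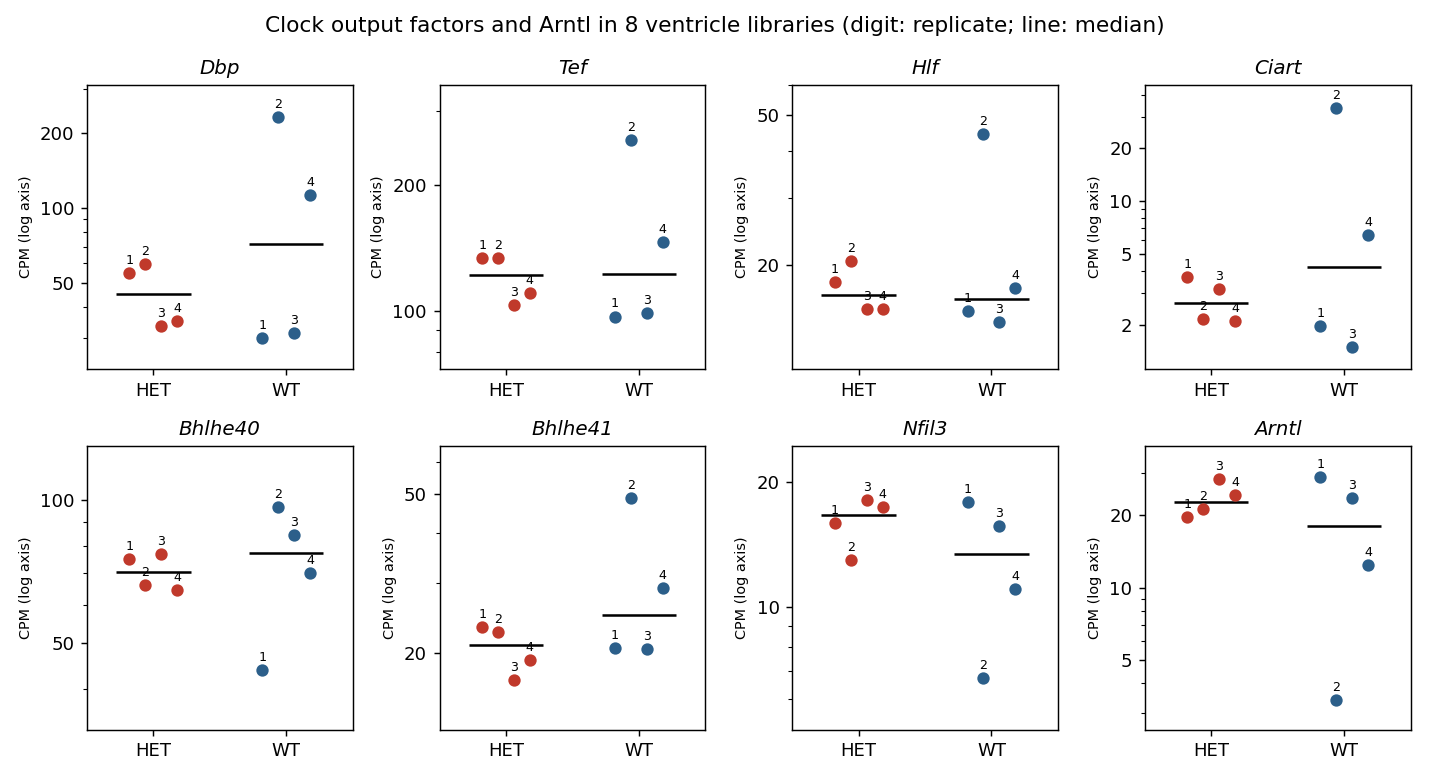
Levels in CPM on a log axis for the 7 factors and Arntl, 1 point per library with its replicate number, HET left and WT right, with a line at each group's median. WT 2 is the highest library for 6 factors and the lowest for Nfil3 and Arntl, and the HET points lie close together.

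Arntl, the activator at the head of the loop (chromosome 7, 113207465 to 113314126, plus strand; ENSMUSG00000055116), ran opposite to most of its output genes. Its levels were 19.6, 21.3, 28.4 and 24.2 CPM in HET 1 to HET 4, against 28.8, 3.42, 23.5 and 12.4 CPM in WT 1 to WT 4. WT 2 was the lowest library and WT 4 the next, below all HET libraries.

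Across the 8 libraries, log2 CPM of 5 factors correlated with that of Arntl at a Pearson r below -0.9, and Nfil3 at an r above 0.9. Such an r, of 0.9 or more in size, was reached by 177 of 14566 genes, 1.22%, of which 60 were negative and 117 positive. Bhlhe41 had r = -0.98 (exact permutation p = 0.000546) and Spearman's rho of -0.86 (exact permutation p = 0.0107). Tef had r = -0.97 (exact permutation p = 0.000372) and rho of -0.90 (exact permutation p = 0.00456). Ciart had r = -0.95 (exact permutation p = 0.00578) and rho of -0.76 (exact permutation p = 0.0368). Dbp had r = -0.95 (exact permutation p = 0.000446) and the same rho and rank p as Tef. Hlf had r = -0.94 (exact permutation p = 0.0213) and the same rho and rank p as Ciart. Nfil3 had r = 0.97 (exact permutation p = 0.000843) and rho of 0.90 (exact permutation p = 0.00456). Bhlhe40 was the exception, with r = -0.59 (exact permutation p = 0.153) and rho of -0.52 (exact permutation p = 0.197).

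Of the 7 factors, 6 had an unadjusted two-sided p below 0.05 for r, as did 13.3% of all genes, 1941 of them. After Benjamini-Hochberg adjustment over the 14566 genes correlated with Arntl, 0.0% of genes and none of the factors passed 0.05 by Pearson's r or by Spearman's rho, and the factors' adjusted exact permutation p for r ran from 0.146 to 0.565. With each genotype's mean subtracted, every r kept its sign, at -0.99 for Tef, -0.98 for Bhlhe41, -0.95 for Dbp, Ciart and Hlf, -0.66 for Bhlhe40 and 0.96 for Nfil3.

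The relation rested to a large degree on WT 2 and WT 4, the libraries farthest from the Arntl median. Without both, r over the 6 remaining libraries was -0.85 for Tef, -0.83 for Dbp, -0.79 for Bhlhe41, -0.66 for Hlf, -0.46 for Bhlhe40, -0.22 for Ciart and 0.71 for Nfil3. Each kept its sign and none reached 0.05, the lowest exact permutation p being 0.0542 for Tef. Without WT 2 alone, r stayed at -0.95 for Dbp, -0.93 for Bhlhe41, -0.86 for Tef and 0.90 for Nfil3, but was -0.75 for Ciart, -0.48 for Hlf and -0.29 for Bhlhe40. No set of libraries that share title digits reached the 6 libraries needed for an r of its own. In the set of HET 1, HET 4, HET 3 and WT 1, in this order, Dbp was 55.0, 35.2 and 33.5 CPM in HET, against 30.2 CPM in WT, and Arntl was 19.6, 24.2 and 28.4 CPM in HET, against 28.8 CPM in WT. In the set of HET 2, WT 3 and WT 4, Dbp was 59.6 CPM in HET, against 31.5 and 112.5 CPM in WT, and Arntl was 21.3 CPM in HET, against 23.5 and 12.4 CPM in WT. Within each of these sets Dbp and Arntl stood in opposite orders.

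With each set's mean subtracted, 7 libraries remained, since WT 2 is alone in its set. This comparison was added after the data were seen. The r within sets was -0.93 for Dbp, which has the smallest exact permutation p that 144 orders within sets can give, 0.00694. It was 0.91 for Nfil3 (exact permutation p = 0.0139), -0.90 for Bhlhe41 (exact permutation p = 0.0417), -0.89 for Ciart (exact permutation p = 0.0486) and -0.84 for Tef (exact permutation p = 0.0694). For Hlf it was -0.39 (exact permutation p = 0.632) and for Bhlhe40 -0.12 (exact permutation p = 0.701). After adjustment over 14566 genes 0 passed 0.05, and the lowest adjusted exact permutation p of a factor was 0.787. Since no exact permutation p can fall below 0.00694 here, a gene could pass only if very many genes shared that p. The adjusted values therefore cannot decide whether a factor followed Arntl within sets.

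**Figure D2:**
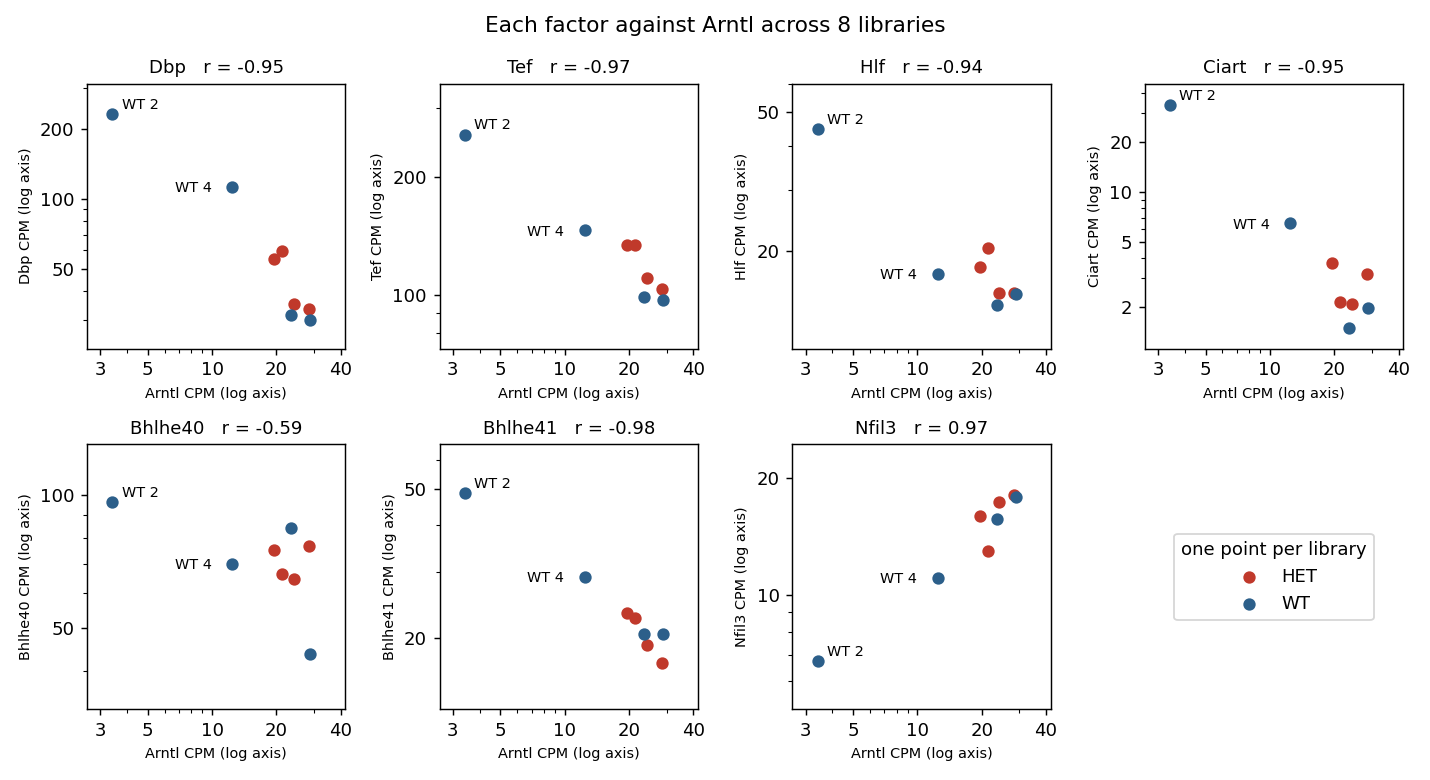
Each factor's CPM against Arntl CPM, both on log axes, 1 point per library, HET in red and WT in blue, with Pearson's r of log2 CPM above each panel. WT 2 and WT 4 lie apart at low Arntl, and the other 6 libraries lie together between 19.6 and 28.8 CPM of Arntl.

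Ratios taken inside a library do not depend on how libraries are scaled to each other. The Dbp to Nfil3 ratio, of a D-box activator to the D-box repressor, was 3.46, 4.59, 1.86 and 2.03 in HET 1 to HET 4, against 1.69, 34.3, 2.01 and 10.2 in WT 1 to WT 4. The Dbp to Arntl ratio was 2.81, 2.80, 1.18 and 1.45 in HET 1 to HET 4, against 1.05, 67.6, 1.34 and 9.04 in WT 1 to WT 4. In both ratios WT 2 and WT 4 lay above all HET libraries, and WT 1 lay below all of them. On the log2 scale Dbp to Nfil3 averaged 1.48 ± 0.62 in HET and 2.55 ± 2.06 in WT (SD, n = 4 each), a difference of -1.08 with p = 0.4 by an exact two-sided permutation test. Dbp to Arntl averaged 0.94 ± 0.65 in HET and 2.44 ± 2.80 in WT on that scale, a difference of -1.498 with p = 0.4 by the same exact permutation test. Without WT 2 the differences were -0.23 and -0.28. Without WT 1 they were -1.68 and -2.29, and without WT 3 -1.59 and -2.17. With 4 libraries against 4, this test cannot give a p below 0.0286.

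**Figure D3:**
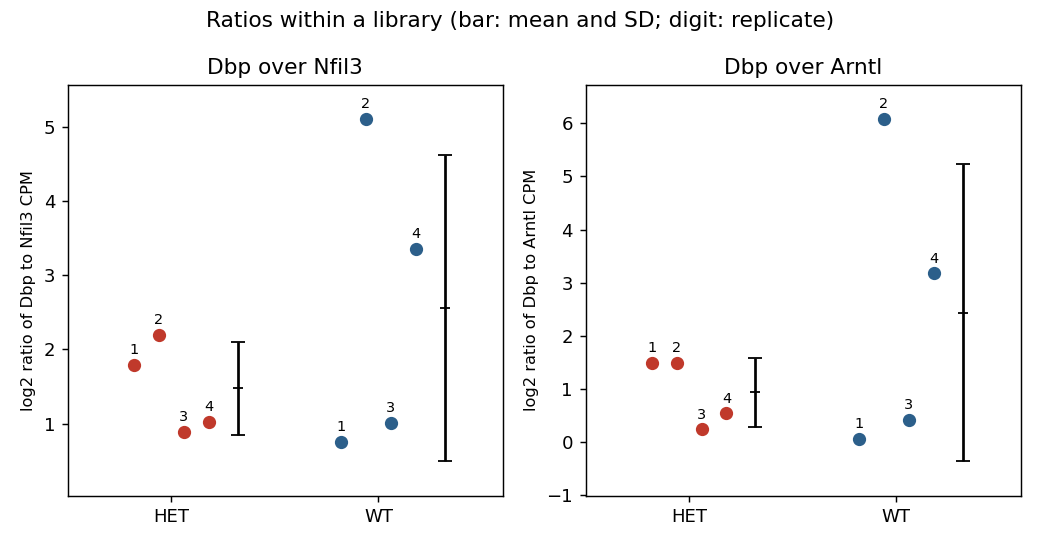
Log2 ratio of Dbp to Nfil3 (left) and of Dbp to Arntl (right) within each library, HET left and WT right, points numbered by replicate, with the mean and SD of each group beside them. The 4 HET points span 0.89 to 2.20 for Dbp to Nfil3, whereas the WT points span 0.75 to 5.10.

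No factor passed the test between genotypes. None of the 7 was below an adjusted p of 0.05, 0 of 7 were below an unadjusted p of 0.05 in edgeR, against 6.38% of all genes, and the HET and WT levels overlapped in all 7, whereas 3.78% of all genes did not overlap. The mean was lower in HET for 6 factors and higher for Nfil3, with a median log2 fold change of -0.40, against -0.004 over all genes tested. Ciart averaged 2.79 ± 0.80 CPM in HET and 10.9 ± 15.3 CPM in WT (SD, n = 4 each), a log2 fold change of -1.95 (95% interval -4.57 to 0.66; edgeR's quasi-likelihood test (Benjamini-Hochberg), adjusted p = 0.770). Dbp averaged 45.8 ± 13.4 CPM in HET and 101 ± 94.8 CPM in WT, a log2 fold change of -1.15 (95% interval -2.94 to 0.65; adjusted p = 0.776 in edgeR). In DESeq2, Ciart had an unadjusted p of 0.0439 and an adjusted p of 0.751. limma-voom, which averages log values, gave smaller log2 fold changes, -0.85 for Ciart and -0.67 for Dbp. The edgeR intervals of both reach past a 4-fold decrease on one side and include an increase on the other, so these 8 libraries bound the genotype difference of Ciart and Dbp only loosely.

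The other factors were bounded more closely. Bhlhe41 averaged 20.6 ± 2.9 CPM in HET and 29.8 ± 13.3 CPM in WT (log2 fold change -0.53, 95% interval -1.25 to 0.18; edgeR adjusted p = 0.770). Hlf averaged 17.2 ± 2.5 CPM in HET and 22.7 ± 14.6 CPM in WT (log2 fold change -0.40, 95% interval -1.39 to 0.59; edgeR adjusted p = 0.856). Tef averaged 120.3 ± 15.9 CPM in HET and 149.7 ± 74.8 CPM in WT (log2 fold change -0.32, 95% interval -1.13 to 0.50; edgeR adjusted p = 0.864). Bhlhe40 averaged 70.6 ± 6.2 CPM in HET and 73.6 ± 22.7 CPM in WT (log2 fold change -0.06, 95% interval -0.60 to 0.48; edgeR adjusted p = 0.967). Nfil3 averaged 16.1 ± 2.2 CPM in HET and 12.8 ± 5.0 CPM in WT (log2 fold change 0.32, 95% interval -0.35 to 1.0; edgeR adjusted p = 0.825). Arntl, at 23.4 ± 3.9 CPM in HET, against 17.0 ± 11.4 CPM in WT, also did not pass (log2 fold change 0.45, 95% interval -0.96 to 1.87; edgeR adjusted p = 0.889). In bulk tissue, a change in how many cells of a type are present and a change in the RNA of each cell cannot be told apart.

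Leaving out WT 2 moved every fold change towards or past 0. Without it the log2 fold change was -0.34 for Dbp, -0.24 for Ciart, -0.19 for Bhlhe41, 0.08 for Tef, 0.15 for Hlf, 0.10 for Bhlhe40 and 0.11 for Nfil3. With the title digits as a covariate, where WT 2 is alone in its set and so adds nothing on genotype, the sign turned for 5 factors, with Dbp at 0.11, Tef at 0.20, Hlf at 0.23, Bhlhe40 at 0.27 and Nfil3 at -0.05. Ciart and Bhlhe41 were at -0.09 each. In limma-voom Tef was at -0.20, Hlf at -0.23 and Bhlhe40 at -0.003. Adjusted p values of the 7 factors over 16 alternative settings, DESeq2 and limma-voom included, ran from 0.599 to 0.999.

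**Figure D4:**
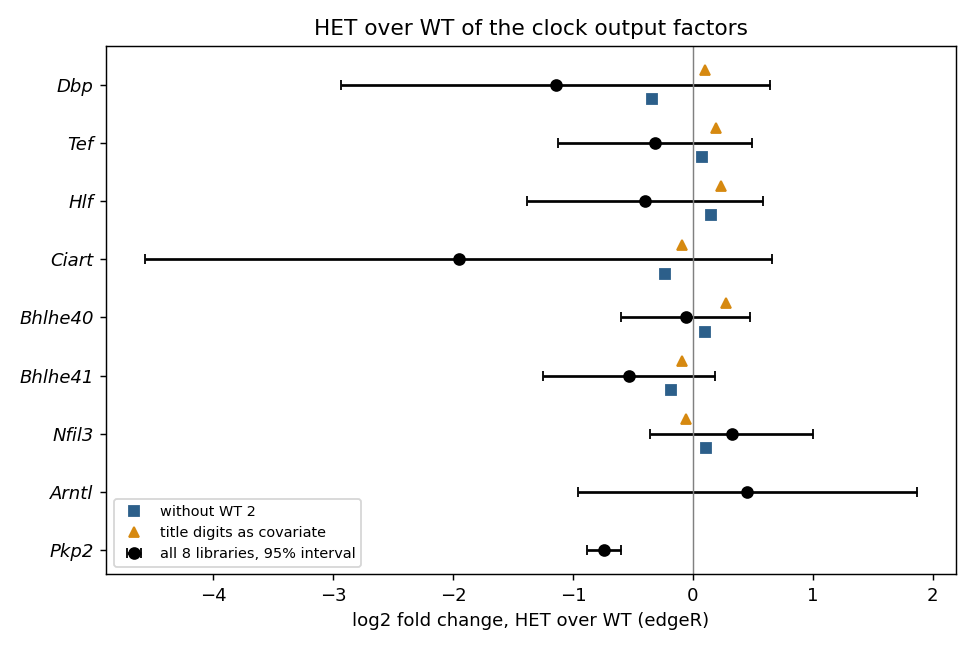
Log2 fold change of HET over WT from edgeR for the 7 factors, Arntl and Pkp2, with 95% intervals in black, and for the factors the value without WT 2 (squares) and with the title digits as covariate (triangles). All factor intervals and that of Arntl cross 0, whereas that of Pkp2 runs from -0.89 to -0.60.

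The spread between libraries was wide for these genes. Over the 8 libraries the SD of log2 CPM was 1.43 for Ciart, 1.05 for Dbp, 0.54 for Hlf, 0.48 for Nfil3, 0.47 for Bhlhe41, 0.46 for Tef and 0.34 for Bhlhe40, against a median of 0.14 over the 14567 genes tested. Ciart ranked 70 and Dbp 137 of those genes by SD, and Bhlhe40 ranked 2446. The SD in HET was 0.43 for Dbp and 0.40 for Ciart, against 1.44 and 2.02 in WT, and 0.13 to 0.21 in HET for the other 5, against 0.50 to 0.77 in WT. Without WT 2 the SD among the 3 remaining WT libraries was 1.08 for Dbp and 1.10 for Ciart, still above HET, whereas for Hlf it was 0.15, below the 0.21 of HET. HET 1, HET 3 and HET 4 share title digits, whereas WT 1, WT 2 and WT 3 all differ in them, and WT 4 has those of WT 3. Spread by genotype and spread by these sets therefore cannot be fully told apart. The difference in spread between genotypes was not tested.

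Per kb of exon, Dbp, Tef and Bhlhe40 were the most abundant of the factors, at medians over 8 libraries of 15.1, 15.5 and 15.4 CPM per kb, levels that did not differ beyond their ranges of 10.1 to 77.3, 12.3 to 32.6 and 9.28 to 20.5. Nfil3 followed at a median of 7.79 CPM per kb, below Bhlhe40 in all 8 libraries. Bhlhe41 (3.22), Hlf (2.43) and Ciart (1.18) were lowest, with Arntl at 2.98 CPM per kb. Ciart and Hlf changed places between libraries: Ciart was above Hlf in 2 of 8, reaching 14.8 CPM per kb in WT 2 and 2.85 in WT 4, where Hlf had 6.66 and 2.59.

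In the core loop some genes ran with Arntl and others against it. Clock and Npas2, partners of BMAL1, had r of 0.92 and 0.91 with Arntl over the 8 libraries, and 0.88 and 0.63 without WT 2. The repressors Per3 and Cry2 had r of -0.97 and -0.96, followed by Nr1d2 (-0.89), Per2 (-0.86), Nr1d1 (-0.77) and Per1 (-0.53). Rorb had r of -0.41, Cry1 0.24 and Rora 0.13. Without WT 2, r was -0.85 for Per3, -0.81 for Cry2 and -0.84 for Nr1d1, but -0.52 for Nr1d2, -0.44 for Per2 and 0.13 for Per1, whose sign turned. On the same 7 libraries Rorb was at -0.78, Cry1 at 0.74 and Rora at 0.41. Per3 was 19.9, 26.5, 17.0 and 20.7 CPM in HET 1 to HET 4, against 14.4, 69.0, 17.2 and 29.8 CPM in WT 1 to WT 4. WT 2 was highest for Per3 and WT 4 next, as for Dbp and Tef. Per1, which glucocorticoids also induce, was 66.6, 40.8, 82.1 and 64.9 CPM in HET 1 to HET 4, against 26.6, 107, 40.2 and 38.5 CPM in WT 1 to WT 4. WT 2 was again highest for Per1, but WT 4 was among the low libraries.

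**Figure D5:**
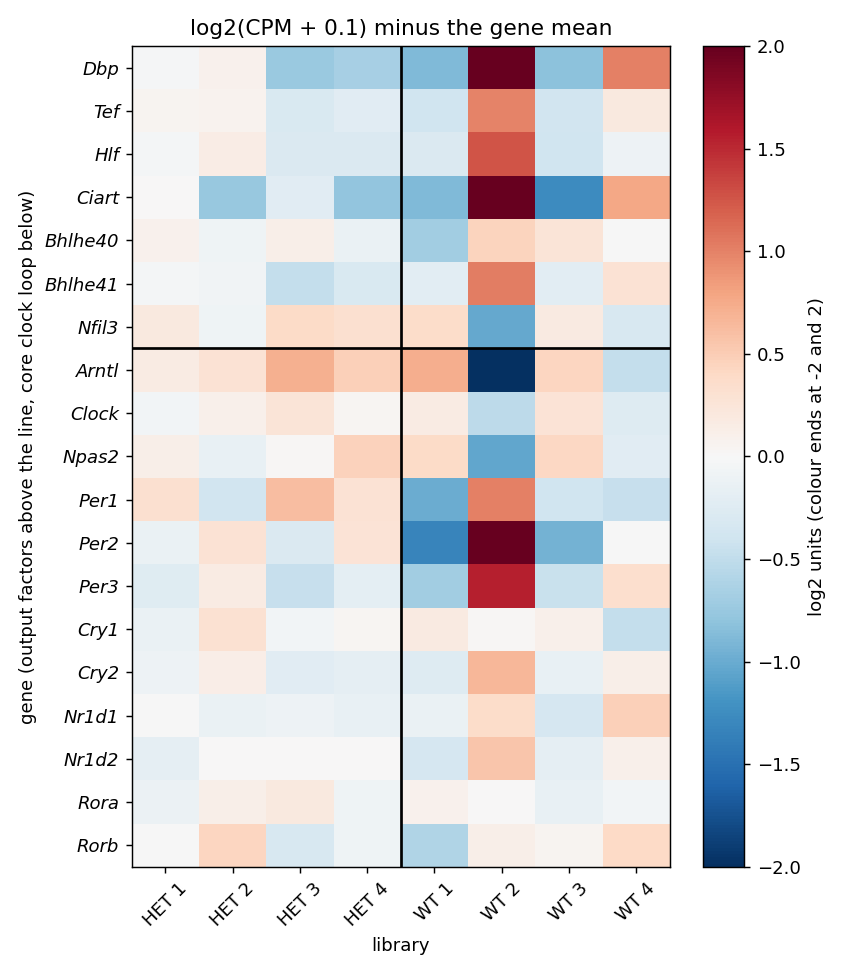
Log2(CPM + 0.1) centred on each gene's own mean of the 8 libraries, in colour from -2 (blue) to 2 (red), for the 7 factors above the line and 12 genes of the core loop below it, HET columns left and WT columns right. In WT 2 the factors other than Nfil3, the Per genes, Cry2, Nr1d1 and Nr1d2 are red, and Nfil3, Arntl, Clock and Npas2 are blue. In WT 4 Dbp, Tef, Ciart, Bhlhe41, Per3, Nr1d1 and Rorb are red, and Nfil3, Arntl, Clock, Npas2, Per1 and Cry1 blue. Nr1d1 is highest in WT 4, at 245.8 CPM, against 228 CPM in WT 2.

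Other clock genes did not pass the test between genotypes either. DESeq2 and limma-voom also called 0 genes in each of these lists. The lists overlap and are not separate results. Per1, Per2, Per3, Nr1d1, Nr1d2, Rora and Rorb are in both the core loop and the D-box list. Usp2 and Nampt are among both the clock regulators and the rhythmic genes. At an unadjusted edgeR p of 0.05, 1 gene stood lower (a clock regulator, Arntl2) and 1 higher (a rhythmic gene, Lpl). Of the 13 core loop genes 0 were called, 7 were on the higher and 6 on the lower side in HET, and the median log2 fold change was 0.06. Among them Nr1d1, which encodes the repressor REV-ERB alpha, was at 164.5 ± 7.6 CPM in HET, against 193.8 ± 51.0 CPM in WT (edgeR adjusted p = 0.793). Of 13 clock regulators 0 were called (median 0.009), and the smallest p belonged to Arntl2, a paralogue of Arntl, at 2.37 ± 0.30 CPM in HET, against 3.01 ± 0.15 CPM in WT (edgeR adjusted p = 0.770), and to Timeless, at 15.8 ± 2.5 CPM in HET, against 18.4 ± 3.5 CPM in WT (edgeR adjusted p = 0.778). Of 11 genes described as D-box targets 0 were called (median -0.009), with the smallest p for Alas1, the first enzyme of haem synthesis, at 296.5 ± 42.2 CPM in HET, against 264.9 ± 21.2 CPM in WT (edgeR adjusted p = 0.770), and next for Nr1d1. Of 17 genes described as rhythmic in heart 0 were called (median 0.05), with the smallest p for Lpl, the lipoprotein lipase, at 5564 ± 240.0 CPM in HET, against 4992 ± 393 CPM in WT (edgeR adjusted p = 0.770), and for Klf15, a regulator of cardiac metabolism, at 53.9 ± 6.4 CPM in HET, against 46.5 ± 7.3 CPM in WT (edgeR adjusted p = 0.770).

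Of the 10105 genes averaging 5 CPM or more, those left after taking out the factors and predicted or unnamed genes were searched. The genes whose log2 CPM followed each factor most closely over the 8 libraries are given as a description, chosen by the highest Pearson r. For Dbp they were Tcap (r = 0.99), which encodes the sarcomere protein telethonin, Phkg2 (0.98) and Commd5 (0.98), and without WT 2 Phkg2 and Commd5 were at 0.98 and 0.94. Tcap was 1054, 1019, 788 and 884 CPM in HET 1 to HET 4, against 803, 2151, 722 and 1453 CPM in WT 1 to WT 4, the same 2 WT libraries being high, and without WT 2 its r with Dbp was 0.97. For Tef they were Mid1ip1 (0.98), Per3 (0.98) and Atp5o (0.97), at 0.94, 0.90 and 0.96 without WT 2. For Bhlhe41 they were Ypel5 (0.99), Smim5 (0.98) and Nsmce1 (0.97), at 0.95, 0.91 and 0.88 without WT 2. For Nfil3 they were Mypn (0.99), which encodes the sarcomere protein myopalladin, Sun2 (0.99), which encodes a nuclear envelope protein, and Mars2 (0.98), at 0.96, 0.98 and 0.94 without WT 2. Mypn was at 158 CPM in WT 2, its lowest library, and at 244 CPM in its highest.

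For Ciart the closest were Dpysl4 (0.99), Ldb1 (0.96) and Ddx41 (0.95), at 0.94, 0.78 and 0.77 without WT 2. For Hlf they were Ankrd12 (0.97), Cd59a (0.96) and Ewsr1 (0.95), which without WT 2 were at 0.68, 0.66 and 0.44, so that their likeness to Hlf rested on that library. For Bhlhe40 they were Cinp (0.96), Nfatc2 (0.95) and Dusp27 (0.95), which without WT 2 were at 0.95, 0.94 and 0.94. Some of these genes moved little in level: Atp5o ranged from 803 to 931 CPM and Cinp from 16.6 to 17.7 CPM over the 8 libraries.

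Markers of other cell types and of handling in WT 2, the library with high output factors, are given beside these results. The summed markers of endothelial cells were 780 to 889 CPM in HET and 747 to 961 CPM in WT, and WT 2 was the lowest of the 8. Of these markers only Kdr was itself lowest in WT 2 (219 CPM). Pecam1, Cdh5, Tek and Emcn in WT 2 lay inside the range of the other libraries. Erythroid genes summed to 301 to 391 CPM in HET and 211 to 494 CPM in WT, with WT 2 lowest. Smooth muscle markers (866 CPM) and Schwann markers (7.32 CPM) were also lowest in WT 2, next to ranges of 869 to 1028 CPM and 8.90 to 10.9 CPM in the other 7 libraries. Of the smooth muscle markers only Acta2 was itself lowest in WT 2 (161 CPM), and Myh11, Tagln, Rgs5 and Pdgfrb were not. Fibroblast markers summed to 475 CPM and macrophage markers to 147.5 CPM in WT 2, inside the ranges of the other 7 libraries (416 to 508 CPM and 142 to 211 CPM), and so did lymphocyte (1.96 CPM), adipocyte (0.65 CPM) and atrial markers (356 CPM). Of 5 adipocyte markers, 1 was at 0 in all libraries.

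The 15 immediate early genes, known to rise within minutes of stimulation or handling, summed to 532 to 1151 CPM in HET and 557 to 979 CPM in WT, and WT 2 at 833 CPM was the third highest. Of these 15 genes, of 11 glucocorticoid-responsive genes and of 10 tested hypoxia targets, 0 were called between genotypes by edgeR, DESeq2 or limma-voom, with 1, 1 and 0 at an unadjusted edgeR p of 0.05 and median log2 fold changes of -0.14, 0.18 and 0.11. Glucocorticoid-responsive genes summed to 784 CPM in WT 2, within the 569 to 899 CPM of the other libraries. Hypoxia targets summed to 1875 to 1979 CPM in HET and to 1873, 1707, 1923 and 1681 CPM in WT 1 to WT 4, so by this sum WT 4 and WT 2, the libraries with high Dbp and Tef, were the lowest. The tested targets differed among themselves. In WT 2, Vegfa, Slc2a1, Egln3 and P4ha1 were at their lowest, and Adm was at its highest (9.41 CPM). Ldha, Pdk1, Ankrd37, Bnip3 and Hk2 in WT 2 lay inside the range of the other libraries. Of the 10 tested targets, 2 had an r with Arntl above 0.9, named after their values were seen: Egln3, a prolyl hydroxylase (0.94, and 0.57 without WT 2), and Vegfa, the endothelial growth factor (0.91, and 0.90 without WT 2). Such an r was reached by 117 of 14566 genes over the whole table. It was also reached by 2 of 3 tested Schwann markers, 1 of 11 glucocorticoid-responsive genes and 0 of 15 immediate early genes. Whether it was particular to any of these lists was not tested. The part of these lists in the levels of the output factors was not tested. The hour of collection, which these genes follow in many tissues, is not in the labels, and its part was not tested either.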

How the data were processed

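RNA-seq of 8 ventricle samples (4 HET, 4 WT) was deposited by the authors as read counts per gene, whole and not normalised, for 38293 Ensembl genes. Per the submitters' processing notes STAR 2.4.2a, HTSeq 0.6.1 and GRCm38/mm10 were used, and the strand setting is not given in the sources used here. A stranded TruSeq kit was used per the labels' protocols. Groups came from the genotype labels, and replicate numbers follow deposition order and pair nothing. Symbols, positions and exon lengths came from GENCODE M21 and promoters from RefSeq GRCm38.p6.

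Genes were filtered with filterByExpr (14567 kept), scaled by TMM and tested in edgeR 4.0.16 (R 4.3.3), robust quasi-likelihood, adjusted p of 0.05 over all genes tested. The common coefficient of biological variation was 0.143. Correlations with Arntl used log2 CPM (prior count 2) and exact permutation over 40320 pairings (Python 3.11.15, numpy 2.4.6). Single values were compared by exact permutation over 70 assignments. The scripts were tested on simulated data. Within groups the mean chi-square per gene between libraries was 14.0 or more, above the sampling noise of a library sequenced again. Pairs across groups were not checked, and a second preparation from the same mouse would not be seen.

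The factors and gene lists were chosen with earlier results of these data known. Named genes are the 7 factors, Arntl, Pkp2, the core clock list, the 2 genes of smallest p in other clock lists, and the 3 most like each factor (predicted genes left out). 1 gene of the core clock list is counted in its totals and not reported here. The results were also computed with scaling by RLE, by upper quartiles or by library size alone, other count filters, DESeq2 1.42.0, limma-voom (limma 3.58.1), title digits as covariate, another prior count, Spearman's rho, genotype-centred values and leaving out each library.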

Additional observations from a re-analysis of the deposited data

Results flagged for a closer look

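Hlf was 44.51 CPM in WT 2, against 14.1 to 17.3 CPM in the other WT libraries, a gap of 0.895 of the group's whole range. Ciart was 33.56 CPM in WT 2, against 1.498 to 6.45 CPM in the other WT libraries, a gap of 0.845 of the range. Both gaps exceeded Dixon's 95% critical value for 4 samples. They are 2 of 20 groups checked, and chance alone flags about 1 in 20. The checks are not independent, since Hlf and Ciart were correlated over the 8 libraries (r = 0.90) and both flags fall on WT 2. Gaps were taken on CPM and not on log2 CPM. For Dbp, Tef, Nfil3, Bhlhe40 and Bhlhe41 no library's gap passed the critical value.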

How the results depend on the processing

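Of 330 alternative values, 310 kept their direction and their side of the threshold, 11 counts or spreads moved and 9 fold changes reversed, none of them past the threshold before or after. The cause was not tested. With the title digits as covariate the log2 fold change was 0.105 for Dbp, 0.195 for Tef, 0.233 for Hlf, -0.054 for Nfil3 and 0.273 for Bhlhe40. Leaving out 1 library at a time gave -0.473 to 0.077 for Tef, -0.575 to 0.154 for Hlf and -0.241 to 0.098 for Bhlhe40, with positive values without WT 2 and, for Bhlhe40, also without WT 3 (0.010). The SD of log2 CPM over the remaining libraries ran from 0.694 to 1.131 for Dbp, 0.241 to 0.498 for Tef, 0.187 to 0.581 for Hlf, 0.697 to 1.545 for Ciart, 0.264 to 0.521 for Nfil3, 0.205 to 0.364 for Bhlhe40 and 0.241 to 0.511 for Bhlhe41. The lowest SD came without WT 2, and for Bhlhe40 without WT 1. Genes called over the whole table were 0 higher and 1 lower, with 401 higher and 529 lower at an unadjusted p of 0.05. DESeq2 called 7 higher and 6 lower, an unfiltered table gave 2 lower, and leaving out 1 library gave 1 to 3 lower, 3 of them without HET 3. Scaling by library size alone moved the unadjusted split to 116 higher and 968 lower. No paired analysis was possible because the replicate numbers follow deposition order and pair no samples, so the sets of shared title digits stand in as the covariate fit given here. Dbp and Ciart had SDs of log2 CPM above 1 over libraries counted 1253 to 9191 and 62 to 1334 times. What depth adds to that spread was not tested.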
